A study of Danio rerio with 12 samples.

Results

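Wild-type zebrafish embryos of the AB strain were compared at 1 and 6 h post fertilization (hpf), before and after the maternal-to-zygotic transition (MZT). Each stage had 3 RNA-Seq libraries from whole embryos, each made from a pool of embryos for which no treatment is given. The other 6 libraries of the series came from znf598 knockout embryos and entered only an alternative fit of all 12 libraries and a comparison of the change between genotypes. All genes with more than 1 CPM (read counts scaled to the size of the library) in at least 3 of the 6 wild-type libraries were taken, which gave 15036 of the 25432 genes in the files. The 6 hpf library of a replicate number was set against the 1 hpf library of the same number, and fold changes are 6 over 1 hpf on the log2 scale.

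The egg carries mRNAs made during oogenesis, and the first cleavages run on them with little transcription. Later the zygotic genome is activated by transcription factors supplied as maternal mRNA, and the store is removed by deadenylation and decay that depend on maternal proteins and on newly made RNAs, among them a microRNA family. At 1 hpf the zebrafish embryo is cleaving. At 6 hpf it is an early gastrula, with an outer enveloping layer, a yolk syncytial layer, a dorsal organizer and the first germ layers.

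Library totals were 10684619 to 12162660 counts at 1 hpf and 7144704 to 9047614 at 6 hpf. Values are TMM-normalized CPM, given per library in the order of replicates 1, 2 and 3 or as mean ± SD (n = 3). A gene with 3 counts or fewer in each library of a stage is at the floor, which is 0.245 CPM at 1 hpf and 0.518 CPM at 6 hpf, and its change is given as a lower bound. Floors cover counting error only. Some genes named below were over the floor at 1 hpf mainly through replicate 3, such as fgfr4 (0, 0 and 7 counts) and tbx16 (1, 0 and 12). So were evpla, mttp, vox, krt18a.1 and aplnra, and zic2 was so through replicate 1 (4, 0 and 0). Their fitted log2 fold changes depend largely on that library and are imprecise. CPM also grows with transcript length, so levels are compared between stages and not between genes. Nothing in the sources says that the pools came from separate clutches, so p-values measure the spread between these libraries, which may be technical. Replicate 3 stood apart at both stages: the chi-square of counts per degree of freedom was 5.44 (1 hpf) and 3.82 (6 hpf) between replicates 1 and 2, and 15.1 to 21.3 for pairs with replicate 3. No pair of libraries was a duplicate. The values are relative to the sampled RNA, and in whole embryos a change in the number of cells of a kind and a change in RNA per cell cannot be told apart.

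From 1 to 6 hpf, 9290 genes changed, which is 61.8% of the 15036 tested (edgeR quasi-likelihood test, adjusted p below 0.01). Of these, 4853 rose (32.3%) and 4437 fell (29.5%), and the median change over all genes was -0.04. Without replicate 3, 5419 genes rose and 5129 fell. When libraries were scaled by their totals alone, the median moved to -0.58, with 3559 genes up and 6677 down, so smaller changes depend on the scaling. Of the tested genes that the rule for named genes took, 57 were not called, and 28 of these were called down under that scaling, while 11 of 101 that rose were no longer called and all 80 that fell still were. Without replicate 2, 9 of the 101 and 10 of the 80 were not called. The rule took named genes largely for large changes, so they do not stand for all genes. Over all genes, 3559 of the 4853 that rose and all 4437 that fell kept their call under scaling by totals. Without replicate 2, 3660 of the 4853 and 2929 of the 4437 kept it. Among called genes, the libraries of both stages did not overlap for 4813 that rose and 4367 that fell. This largely follows from the calls and is no separate support. Libraries of some genes that were not called, such as h1m and kif11, did not overlap either.

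Rises reached further than falls. Among genes that rose, 2009 changed by more than 3 on the log2 scale (8-fold) and 1241 by more than 5 (32-fold). Among genes that fell, 524 changed by more than 3 and 15 by more than 5. The median rise was 2.23 and the median fall -1.76. At 1 hpf 871 of the genes that rose were at the floor in each library, which is 17.9% of them. Only 73 of the genes that fell were at the floor at 6 hpf (1.65%), and 2303 were still above 10 CPM on average.

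**Figure D1:**
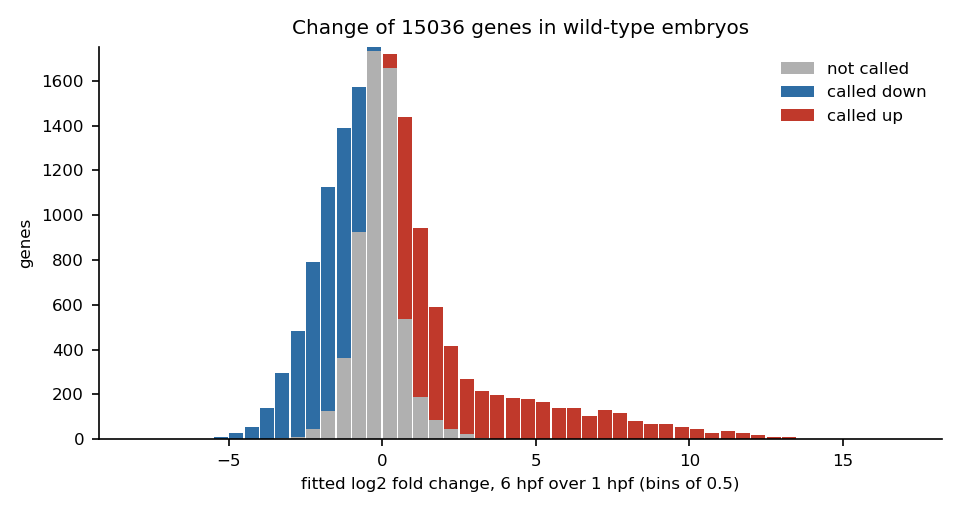
Number of genes (y axis) by fitted log2 fold change, 6 over 1 hpf (x axis, bins of 0.5), for the 15036 genes tested, with genes called up in red, called down in blue and not called in grey. On the left 15 falls lie past 5 on the log2 scale, and on the right 1241 rises lie past the same size. Fitted values of genes at the floor depend on the model's prior count.

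The transcript pool turned over accordingly. Genes that fell held 39.2%, 39.1% and 38.8% of counts in tested genes at 1 hpf and 10.3%, 9.30% and 8.02% at 6 hpf. Genes that rose went from 32.4% ± 0.355 to 71.6% ± 2.25. The 871 genes that rose from the floor made up 1.95% ± 0.112 of counts at 6 hpf. The 2337 genes that rose from a mean over 10 CPM at 1 hpf held 61.03% ± 1.98 of counts at 6 hpf. Of the genes that rose, 885 had a mean over 100 CPM at 1 hpf. Replicate 3 at 6 hpf had the lowest share in genes that fell and the highest in genes that rose, 74.1% against 69.6% and 71.3%. The calls define these groups, so the shares are a description.

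**Figure D2:**
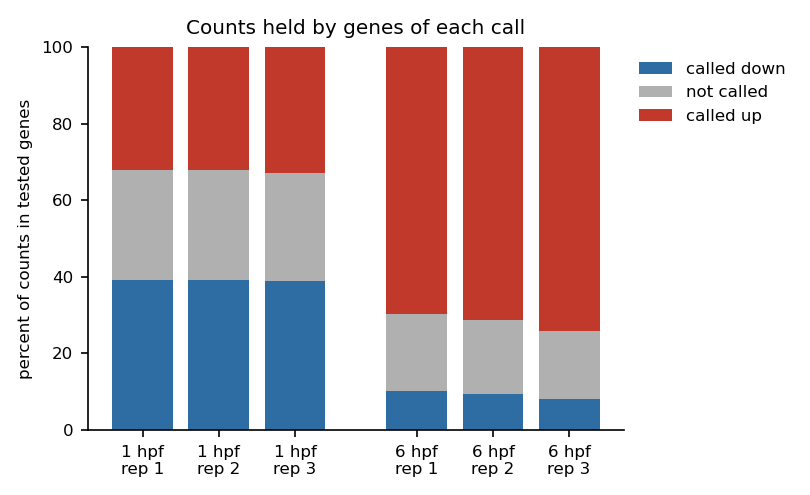
Percent of counts in tested genes (y axis) held by genes called down (blue), not called (grey) and called up (red) in each of the 6 wild-type libraries (x axis). Genes called down hold 38.8% to 39.2% at 1 hpf and 8.02% to 10.3% at 6 hpf.

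Functions were read from 25 lists of genes, with 777 genes in all. Of these 655 were tested, 366 rose, 130 fell and 159 were not called. The 10 lists of embryonic territories, signals and cell movement had medians of 4.28 to 8.11, and the lists of the egg and the germ plasm had medians of -1.09 to -2.04, beside -0.04 for all genes tested. The filter bears on these numbers. Of the 253 tested genes of the 10 embryonic lists, 111 were over 1 CPM in no 1 hpf library and passed only through the 6 hpf libraries, which fixed that they were higher there, and listed genes low at both stages were left out. The counts and medians of these lists describe the genes that passed and do not stand for all members. In the lists of the egg coat, of oocyte maturation and of the germ plasm no gene passed through 1 stage alone. Of all genes tested, 1500 passed through the 6 hpf libraries alone, and 1458 of these rose. Through the 1 hpf libraries alone 486 passed, and 267 of these fell.

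**Figure D3:**
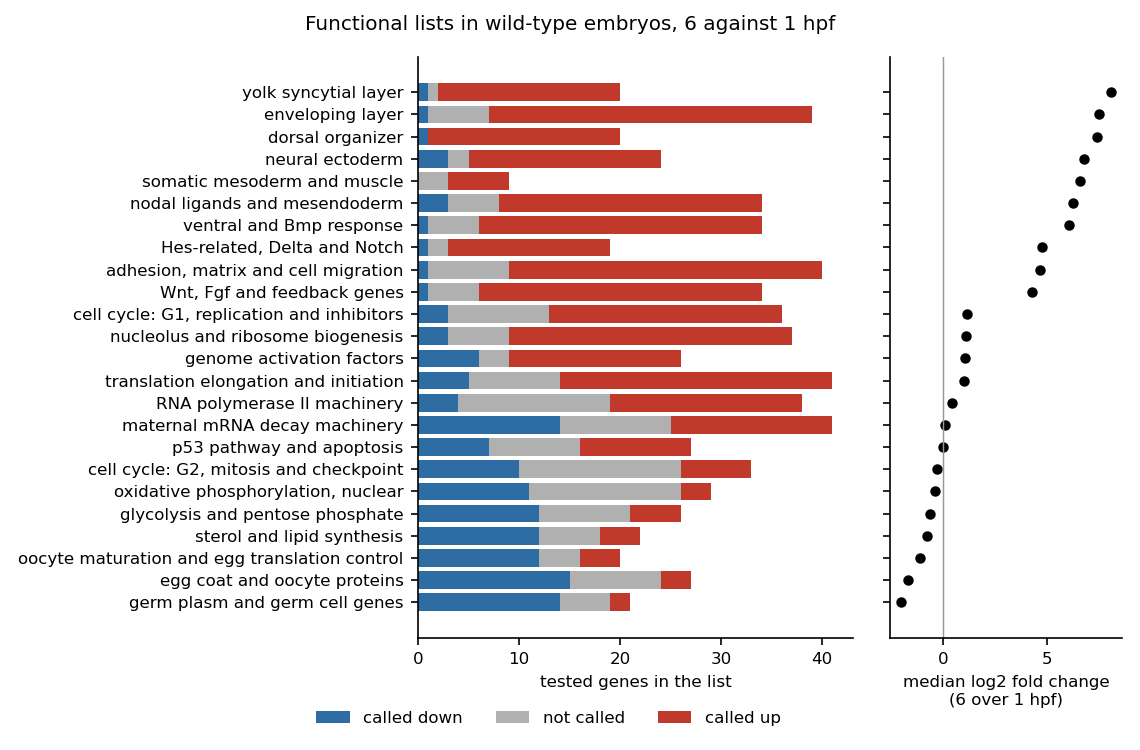
Left, number of tested genes (x axis) called down (blue), not called (grey) and called up (red) in 24 functional lists (y axis). Right, the median log2 fold change of the tested members of each list. Yolk syncytial layer has the highest median (8.11) and germ plasm and germ cell genes the lowest (-2.04). The list of mitochondrially encoded mRNAs had no tested member.

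In the list of egg coat and oocyte proteins, 15 of 27 tested members fell (55.6%, beside 29.5% of all genes tested). A rise was called for 3 (11.1%, beside 32.3%) and 9 were not called, with a median of -1.70. The summed level of the list was 5096, 5086 and 7279 CPM at 1 hpf and 5125, 5059 and 4722 CPM at 6 hpf. The growth factor gene bmp15 (ENSDARG00000037491), whose product the oocyte secretes to act on the follicle, had 186, 169 and 182 CPM at 1 hpf and 21.1, 13.3 and 7.77 CPM at 6 hpf. This is a fall in each replicate, by 12.7-fold on the means (log2 fold change -3.73, SE 0.27, adjusted p = 8.28e-05). The claudin gene cldnd (ENSDARG00000006580) had 773, 775 and 1284 CPM at 1 hpf and 91.1, 89.5 and 62.1 CPM at 6 hpf (log2 fold change -3.51, SE 0.28, adjusted p = 0.000116), and the carbonic anhydrase gene ca15b had 491, 516 and 599.7 CPM at 1 hpf and 46, 41.7 and 15.5 CPM at 6 hpf (log2 fold change -4.03, SE 0.37, adjusted p = 0.000198). Both were lowest in replicate 3 at 6 hpf, and neither overlapped between stages. Coat genes of the zona pellucida families belong to multigene clusters whose reads may be lost or split in counting, so their values are uncertain. None of them is named here, so the named falls are those of other genes in the list. The linker histone of the oocyte, h1m, had 973, 996 and 1594 CPM at 1 hpf and 497, 445 and 191 CPM at 6 hpf and was not called (log2 fold change -1.70, SE 0.42, adjusted p = 0.0106), although its libraries did not overlap. Without replicate 3 the change of h1m was -1.07 with an adjusted p of 5.1e-07. It was also called down without replicate 1 (-2.10, adjusted p = 0.0043) and without replicate 2 (-2.01, adjusted p = 0.0085). The same held with libraries scaled by totals alone (-2.25, adjusted p = 0.0022).

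The members of this list that rose are not specific to oocytes. The lysosomal protease gene ctsla had 797, 777 and 782 CPM at 1 hpf and 3526, 3598 and 3657 CPM at 6 hpf (log2 fold change 2.19, SE 0.07, adjusted p = 6.78e-06), the transcription factor gene pou2f1 rose from 21.4 ± 2.82 to 89.2 ± 13.7 CPM, and the protease inhibitor gene spint1a from 110.3 ± 6.12 to 251 ± 5.52 CPM. These genes had mRNA at 1 hpf, and whether it was kept or replaced by 6 hpf was not tested. The nucleoplasmin gene npm2b had 138, 94.7 and 83.1 CPM at 1 hpf and 124, 86.8 and 53 CPM at 6 hpf and was not called.

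In the list of oocyte maturation and egg translation control, 12 of 20 fell (60%, beside 29.5% of all genes tested). A rise was called for 4 (20%, beside 32.3%), and the median was -1.09. The largest fall was that of btg4 (ENSDARG00000035171), whose product in mouse recruits deadenylases to maternal mRNAs. It had 155, 148 and 111 CPM at 1 hpf and 9.07, 7.11 and 2.59 CPM at 6 hpf (log2 fold change -4.51, SE 0.25, adjusted p = 3.56e-05). For slbp2 (ENSDARG00000069428), the oocyte form of the histone stem-loop binding protein, the values were 434, 439 and 429 CPM at 1 hpf and 30.6, 22.3 and 11.7 CPM at 6 hpf, a fall of 20.2-fold (log2 fold change -4.39, SE 0.27, adjusted p = 4.54e-05). The RNA-binding gene zar1l fell from 42.9 ± 8.92 to 2.07 ± 1.08 CPM. All 3 genes were lowest in replicate 3 at 6 hpf. In contrast, ybx1 (ENSDARG00000004757), which encodes an mRNA-binding protein that represses translation, had 233, 242 and 257 CPM at 1 hpf and 1593, 1839 and 2078 CPM at 6 hpf (log2 fold change 2.90, SE 0.09, adjusted p = 5.95e-06). The m6A reader gene ythdf2, which acts in maternal mRNA clearance in zebrafish, rose from 146 ± 13.8 to 504 ± 21.2 CPM. The gene of the stabilizing factor igf2bp3 rose from 360.1 ± 16 to 592 ± 72 CPM, and pgrmc1 from 40.4 ± 3.29 to 81.9 ± 4.57 CPM. Neither of the last 2 was called under scaling by library totals alone, or without replicate 2 (adjusted p = 0.017 and 0.011).

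Germ plasm and germ cell genes had the lowest median of all lists (-2.04): 14 of 21 fell (66.7%), 2 rose (9.52%) and 5 were not called. The shares over all genes tested were 29.5% down and 32.3% up. Germ plasm is the maternal assembly that specifies the germline in fish, and its mRNAs are kept in the few primordial germ cells. The organizer of the oocyte's Balbiani body, buc (ENSDARG00000096095), had 834, 806 and 878 CPM at 1 hpf and 87.8, 68.8 and 37.1 CPM at 6 hpf (log2 fold change -3.77, SE 0.27, adjusted p = 7.42e-05). The gene asz1, of the piRNA pathway, fell from 76.3 ± 13.1 to 7.37 ± 1.16 CPM, and dazl, which encodes a germ cell RNA-binding protein, fell from 282 ± 23.9 to 41 ± 15 CPM (log2 fold change -2.82, SE 0.26, adjusted p = 0.000183). Each of these genes fell in all 3 replicates. By contrast, the vasa gene ddx4 (ENSDARG00000014373) had 215, 224 and 266 CPM at 1 hpf and 269, 283 and 418 CPM at 6 hpf. That is a small rise without overlap (log2 fold change 0.44, SE 0.10, adjusted p = 0.00955). It was not called without replicate 1 (0.50, adjusted p = 0.027), without replicate 2 (0.49, adjusted p = 0.05) or without the replicate block (0.46, adjusted p = 0.046). The size of the change was not smaller in these fits. With libraries scaled by totals alone the change of ddx4 was -0.11. The helicase gene ddx43 rose from 83.1 ± 2.72 to 157 ± 13.7 CPM, a rise not called under that scaling (0.37, adjusted p = 0.016). Under it no gene of the list rose and 16 fell, where 23.7% of all genes rose and 44.4% fell. Not called were celf1 (from 231 ± 7.37 to 303 ± 59.7 CPM) and tdrd9 (from 89.2 ± 15.5 to 115 ± 7.6 CPM).

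Of 41 genes of the maternal mRNA decay machinery, all tested, 16 rose (39%) and 14 fell (34.1%), near the 32.3% and 29.5% of all genes tested (median 0.09). Among those that fell were lsm1, a decapping factor, from 83.2 ± 0.645 to 8.75 ± 2.43 CPM, drosha (ENSDARG00000055563), the nuclease that starts microRNA processing, from 223 ± 18.5 to 26.9 ± 1.33 CPM, and zfp36l2, which binds AU-rich elements, from 46.3 ± 6.73 to 7.43 ± 0.847 CPM. The drosha libraries were tight, with 214, 211 and 245 CPM at 1 hpf and 27.9, 27.4 and 25.4 CPM at 6 hpf (log2 fold change -3.05, SE 0.12, adjusted p = 1.36e-05). Those that rose included zfp36l1 (ENSDARG00000021443, from 0.425 ± 0.162 to 11.3 ± 4.32 CPM). The filter passed zfp36l1 through the 6 hpf libraries alone, which fixed that it was higher there. Another that rose was igf2bp1, with 191, 97.8 and 33.3 CPM at 1 hpf and 1095, 1129 and 1352 CPM at 6 hpf. Its 3 libraries at 1 hpf differed among themselves (191 CPM in replicate 1 against 33.3 in replicate 3). Its rise (log2 fold change 3.76, SE 0.55, adjusted p = 0.0012) was not called without replicate 3 (adjusted p = 0.043). The deadenylase gene cnot8 had 275, 274 and 288 CPM at 1 hpf and 321, 279 and 186 CPM at 6 hpf, and ago2, whose product carries microRNAs, 204, 207 and 222 CPM at 1 hpf and 249, 203 and 223 CPM at 6 hpf. Neither was called, but with libraries scaled by totals alone both were called down, cnot8 by -0.67 and ago2 by -0.46.

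The highest of the genes that fell by more than 3 on the log2 scale included cldnd and buc, given above. The gene mid1ip1l, which germ plasm aggregation needs in zebrafish, had 971, 1008 and 1112 CPM at 1 hpf and 100.1, 91.5 and 53.7 CPM at 6 hpf (log2 fold change -3.69, SE 0.23, adjusted p = 4.96e-05). The small GTPase gene rasef2 (ENSDARG00000074163) fell most steeply among them, with 798, 809 and 1037 CPM at 1 hpf and 42.3, 28.9 and 16.7 CPM at 6 hpf (log2 fold change -4.95, SE 0.34, adjusted p = 6.64e-05). Then came cldng, a claudin (from 841 ± 188 to 41 ± 13.6 CPM), slc25a25, a mitochondrial carrier (from 807 ± 28.5 to 87.5 ± 41.6 CPM), and mknk2, a kinase of eIF4E (from 741 ± 72.4 to 88.7 ± 40.1 CPM). The cyclin gene ccnp fell from 636 ± 95.7 to 59.9 ± 11.1 CPM, the lipase gene lipg from 582 ± 64.2 to 25.6 ± 14.6 CPM and zgc:56231 from 729 ± 8.13 to 52.3 ± 25.1 CPM. In each of these the libraries were far apart between stages and replicate 3 was the lowest at 6 hpf.

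Of the 73 genes cleared to the floor, 69 had a symbol, and the 10 with the highest CPM at 1 hpf are given here. The gene p4htm, a prolyl hydroxylase, had 14.4, 12.1 and 11.9 CPM at 1 hpf and 0.4, 0.403 and 0.173 CPM at 6 hpf, at least 24.7-fold lower at 6 hpf. For gpr157, a G protein-coupled receptor, the bound was 16.9-fold, for si:ch1073-184j22.1 15.9-fold and for neurog1, a proneural factor, 10.4-fold. Others were optn (at least 9.8-fold), misp (at least 9-fold), rsad1 (at least 8.87-fold), rgs2 (at least 8.6-fold), si:dkey-193c22.1 (at least 8.06-fold) and fam8a1a (at least 7.55-fold). Each of these genes was at 14.4 CPM or less in the 1 hpf libraries.

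For 9 genes of the egg a later form of the same family was set beside it. In 7 of the 9 pairs the egg form fell, and in 8 of the 9 the later form rose. No form was called the other way. Over all genes tested 29.5% fell and 32.3% rose. The pairs were chosen with earlier results of these data known, so these counts describe the chosen pairs and are no separate support. With libraries scaled by totals alone, the egg form eif4e1b (-0.65) and the later form btg2 (-0.69) were called down. Among the claudins, cldnd fell as above and cldne (ENSDARG00000043128), a gene of the enveloping layer, had 0, 0 and 0.164 CPM at 1 hpf and 510.1, 524 and 551 CPM at 6 hpf, at least 2155-fold higher. For the SoxB1 factors, sox19b had 604, 616 and 623 CPM at 1 hpf and 163, 173 and 139 CPM at 6 hpf (log2 fold change -1.96, SE 0.10, adjusted p = 2.89e-05), and sox19a (ENSDARG00000010770) had 0, 0 and 0.245 CPM at 1 hpf and 269, 306 and 309 CPM at 6 hpf, at least 1202-fold higher. At 6 hpf sox19b was still at 139 CPM or more in each library. For the Wee kinases, which hold back Cdk1, wee2 had 153, 89.8 and 194 CPM at 1 hpf and 64.3, 38.5 and 24.7 CPM at 6 hpf (log2 fold change -1.78, SE 0.36, adjusted p = 0.00501) while wee1 had 14.6, 13.6 and 12.3 CPM at 1 hpf and 129, 124 and 130.3 CPM at 6 hpf (log2 fold change 3.24, SE 0.13, adjusted p = 1.23e-05).

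As for the Wee kinases, both forms of the remaining pairs were already present at 1 hpf. The poly(A)-binding protein gene pabpc1l fell from 122 ± 14.1 to 30.6 ± 9.69 CPM, and pabpc1a rose from 417 ± 71.3 to 1398 ± 222 CPM. The nucleoplasmin gene npm2a fell from 41.1 ± 1.37 to 8.07 ± 2.98 CPM, while npm1a rose from 204 ± 43 to 884 ± 117 CPM. Here slbp, the somatic form beside slbp2, rose from 349.5 ± 59.5 to 649.9 ± 9.19 CPM and btg2, beside btg4, was not called (from 386 ± 11.1 to 353 ± 58.7 CPM, log2 fold change -0.14, SE 0.11, adjusted p = 0.29). The rise of slbp was not called under scaling by library totals alone (0.36, adjusted p = 0.035). The cyclin gene ccna1 had 786, 778 and 1131 CPM at 1 hpf and 503, 479 and 274 CPM at 6 hpf. It was not called (log2 fold change -1.12, SE 0.28, adjusted p = 0.0123), although it was without replicate 3 (-0.67, adjusted p = 3.8e-06). It was also called down without replicate 1 (-1.37, adjusted p = 0.0054) and under scaling by library totals alone (-1.67, adjusted p = 0.0014). Its later form ccna2 rose from 948 ± 55.9 to 1762 ± 80.7 CPM. The translation initiation gene eif4e1b was not called (from 60.2 ± 2.33 to 56.2 ± 2.75 CPM, log2 fold change -0.10, SE 0.12, adjusted p = 0.474), and eif4e (ENSDARG00000077012) rose from 5.24 ± 0.67 to 12 ± 0.437 CPM, a rise not called without replicate 2 (adjusted p = 0.03) or under scaling by library totals alone (0.034).

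**Figure D4:**
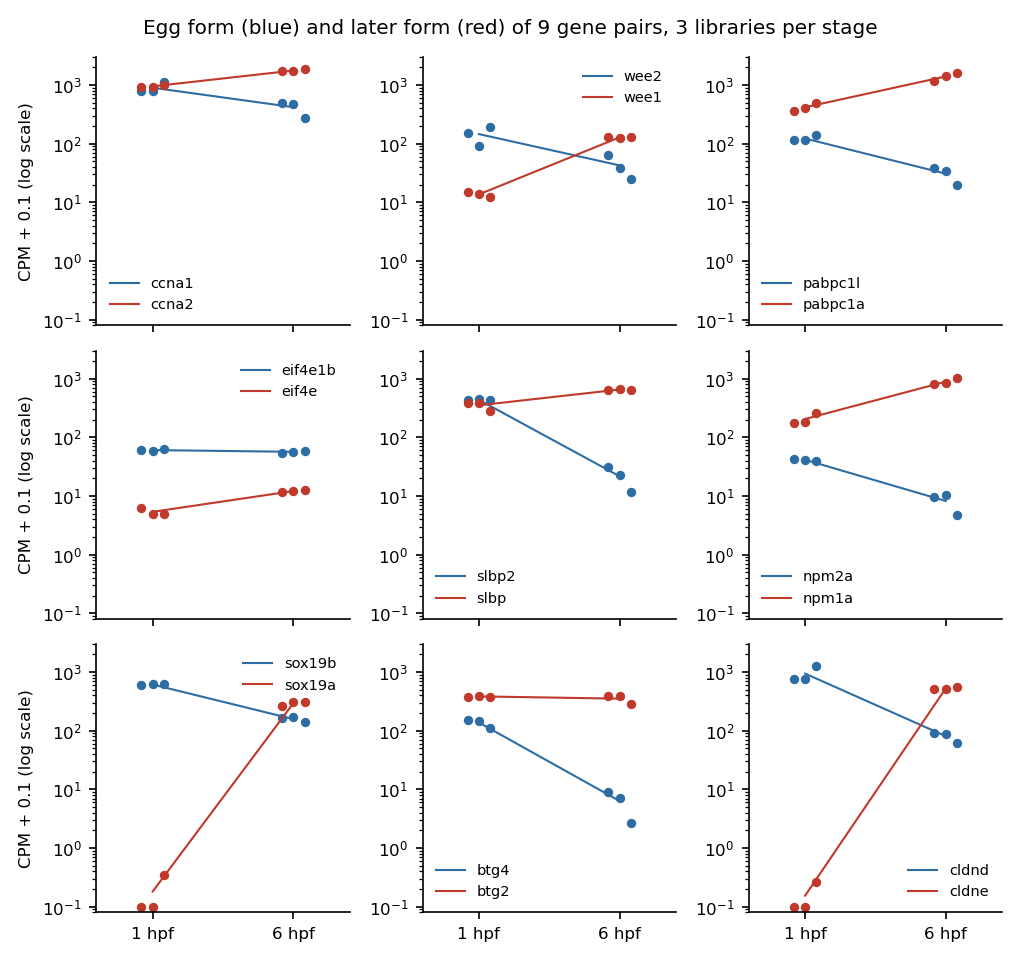
CPM + 0.1 on a log scale (y axis) at 1 and 6 hpf (x axis) for the egg form (blue) and later form (red) of 9 gene pairs. Points are the 3 libraries of a stage and lines join their means. The later forms sox19a and cldne start at the floor, and the lines of eif4e1b and btg2, neither called, run near level on this scale, which rests on TMM scaling.

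Genes of G1 and replication rose more often than they fell: 23 of 36 rose (63.9%), 3 fell (8.33%) and 10 were not called (median 1.14). Of all genes tested 32.3% rose and 29.5% fell. Of the 36, 7 passed the filter through the 6 hpf libraries alone, which fixed that they were higher there, and all 7 rose. Through the 1 hpf libraries alone 1 passed, and it fell. The early cleavage cycles have no gap phases. The cyclin D1 gene ccnd1 (ENSDARG00000101637), which drives entry into S phase, had 1.39, 1.56 and 1.47 CPM at 1 hpf and 1874, 2194 and 1833 CPM at 6 hpf (log2 fold change 10.37, SE 0.12, adjusted p = 2.39e-06). The replicative helicase gene mcm3 (ENSDARG00000024204) had 0.529, 0.271 and 0.409 CPM at 1 hpf and 609, 663 and 467 CPM at 6 hpf (log2 fold change 10.46, SE 0.20, adjusted p = 3.16e-06), ccne2 had 1.26, 1.42 and 1.39 CPM at 1 hpf and 406, 409 and 388 CPM at 6 hpf, and gadd45b (ENSDARG00000013576) rose from 0.384 ± 0.268 to 139.9 ± 11.8 CPM. Of these 4, mcm3 and gadd45b were near the floor at 1 hpf, while ccnd1 and ccne2 were low but over 1 CPM in each library. Another helicase subunit, mcm5, was abundant throughout (from 314 ± 7.71 to 279 ± 87.5 CPM) and was not called. Falls were seen for orc1, an origin recognition subunit (from 98.4 ± 9.1 to 29.2 ± 9.74 CPM), ccnd2 (ENSDARG00000051748, from 11 ± 3.27 to 2.57 ± 0.618 CPM), and gadd45a (ENSDARG00000104571), which fell to the floor (at least 3.03-fold) but was not called without replicate 1 or 2 (adjusted p = 0.014 and 0.017). A second gene with that symbol rose and is given with p53.

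Of genes of G2, mitosis and the checkpoint, 7 of 33 rose (21.2%, beside 32.3% of all genes tested). A fall was called for 10 (30.3%, beside 29.5%), and 16 were not called (median -0.29). Without replicate 3 the counts were 12 up and 15 down, where 36% of all genes rose and 34.1% fell. With libraries scaled by totals alone they were 4 up and 21 down, where 23.7% of all genes rose and 44.4% fell. The survivin gene birc5b (ENSDARG00000055655) had 76.7, 69.1 and 76.9 CPM at 1 hpf and 5.87, 3.62 and 2.24 CPM at 6 hpf (log2 fold change -4.25, SE 0.27, adjusted p = 5.25e-05). The checkpoint kinase gene chek2 fell from 74.3 ± 6.55 to 17.2 ± 5.19 CPM and fzr1b, an activator of the anaphase-promoting complex, from 4.29 ± 1.21 to 0.81 ± 0.228 CPM. The filter passed fzr1b through the 1 hpf libraries alone, which fixed that it was higher there. Rises beside those of wee1 and ccna2 were seen for bub1bb, of the spindle checkpoint (from 79.1 ± 3.05 to 247 ± 17.3 CPM), and ccnb3 (from 66.1 ± 2.58 to 139 ± 18.6 CPM). The mitotic cyclin gene ccnb1 (ENSDARG00000051923) had 1225, 1245 and 1898 CPM at 1 hpf and 1547, 1536 and 1117 CPM at 6 hpf (log2 fold change -0.04, SE 0.22, adjusted p = 0.887), with replicate 3 highest at 1 hpf and lowest at 6 hpf. Without replicate 3 ccnb1 was called up (0.32, adjusted p = 0.00017), and so was tpx2 (0.30, adjusted p = 0.00035).

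Among factors of genome activation, 17 of 26 tested rose (65.4%), 6 fell (23.1%) and 3 were not called (median 1.07). The shares over all genes tested were 32.3% up and 29.5% down. Of the 17, 3 passed the filter through the 6 hpf libraries alone, which fixed that they were higher there. Pou5f3, Nanog and Sox19b, the activators best known from zebrafish, are made from maternal mRNA, and their mRNAs took different courses. The pou5f3 gene rose from 494 ± 123 to 2603 ± 156 CPM (log2 fold change 2.43, SE 0.16, adjusted p = 6.36e-05; named for its role, after its values were seen), sox19b fell as above, and nanog (ENSDARG00000075113) had 774, 819 and 748 CPM at 1 hpf and 1331, 1065 and 408 CPM at 6 hpf. The call for nanog (log2 fold change 0.11, SE 0.30, adjusted p = 0.764) rests on replicate 3, since without it nanog was called up (0.58, adjusted p = 0.00028). The T-box gene eomes (ENSDARG00000006640) fell from 168 ± 8.69 to 38.6 ± 14 CPM, smad2, which carries Nodal signals, from 222 ± 11.4 to 82.4 ± 11.7 CPM, and tbpl2, a TATA-binding protein of the oocyte in other vertebrates, from 37.9 ± 3.16 to 3.02 ± 0.758 CPM. The tbpl2 values were 38.1, 34.7 and 41 CPM at 1 hpf and 3.07, 3.76 and 2.24 CPM at 6 hpf (log2 fold change -3.63, SE 0.24, adjusted p = 5.54e-05), and tbp itself fell from 255 ± 5.23 to 129 ± 45.8 CPM, a fall not called without replicate 2 (adjusted p = 0.013). Members that rose included sox2 and sox19a, given with other lists, and sox11 (ENSDARG00000077811), from 1.2 ± 0.485 to 812 ± 86.5 CPM, and vgll4l, at least 78.2-fold higher.

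Of the 871 genes that rose from the floor, 822 had a symbol, and the 10 with the highest CPM at 6 hpf are given here. The adhesion molecule gene alcamb (ENSDARG00000058538) had no counts in any 1 hpf library and 699, 749 and 869.5 CPM at 6 hpf, at least 3149.9-fold higher. The nuclear receptor gene nr0b2 (ENSDARG00000044685) had 0, 0 and 0.164 CPM at 1 hpf and 544, 629 and 607 CPM at 6 hpf, at least 2419-fold higher. They were followed by cldne, given above, krt92, a keratin (at least 2089.6-fold), si:ch211-152c2.3 (at least 1696-fold) and flrt3, a membrane protein of Fgf signaling and adhesion (at least 1499-fold). Of the others, lcp1 encodes an actin-bundling protein (at least 1389-fold), has2 a hyaluronan synthase (at least 1379-fold), tgfbr2l a receptor of the Tgf-beta family (at least 1324-fold) and foxa3 a forkhead factor (at least 1323-fold). In all 10 the 6 hpf libraries lay at 264 CPM or more and the 1 hpf libraries at 3 counts or fewer.

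**Figure D5:**
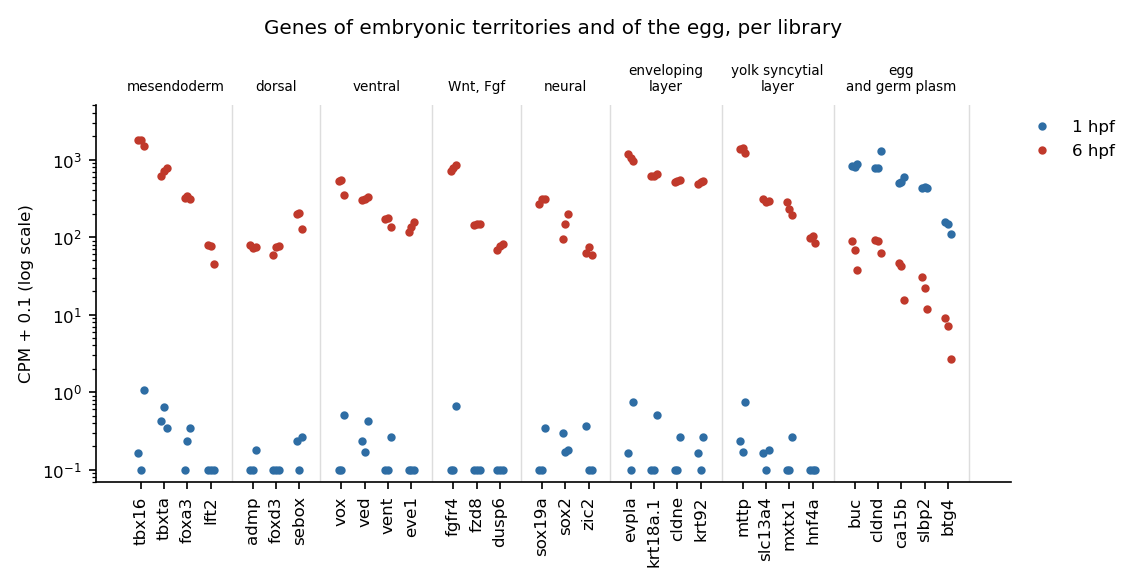
CPM + 0.1 on a log scale (y axis) in each 1 hpf (blue) and 6 hpf (red) library for named genes (x axis) of 7 embryonic groups and of the egg and germ plasm. The embryonic genes sit near the lower limit at 1 hpf and between 44.9 and 1812 CPM at 6 hpf, and the 5 egg genes fall.

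Nodal ligands are secreted signals that induce mesoderm and endoderm at the margin. Of 34 tested genes in that list, 26 rose (76.5%), 9 of them from the floor, 3 fell (8.82%) and 5 were not called (median 6.27). The shares over all genes tested were 32.3% up and 29.5% down. The filter passed 14 of the 34 through the 6 hpf libraries alone, which fixed that they were higher there. The T-box gene tbx16 (ENSDARG00000007329) had 0.0661, 0 and 0.981 CPM at 1 hpf and 1812, 1809.5 and 1491 CPM at 6 hpf (log2 fold change 12.36, SE 0.61, adjusted p = 2.3e-05), and tbxta (ENSDARG00000101576), the brachyury gene, had 0.33, 0.542 and 0.245 CPM at 1 hpf and 611, 720.3 and 773 CPM at 6 hpf (log2 fold change 10.80, SE 0.20, adjusted p = 3.16e-06). Both lay at 611 CPM or more in each 6 hpf library. The Nodal antagonist gene lft2 had no counts at 1 hpf and 78.7, 76.6 and 44.9 CPM at 6 hpf, at least 272-fold higher and lowest in replicate 3. The members that fell had mRNA at 1 hpf: gdf3, the partner ligand of Nodal (from 349 ± 34.7 to 216 ± 39.7 CPM), the receptor gene acvr2a (from 159 ± 10.5 to 76.5 ± 2.48 CPM) and smad3 (ENSDARG00000010207, from 11.5 ± 7.56 to 2.56 ± 1.04 CPM). The fall of gdf3 was not called without replicate 2 (adjusted p = 0.02), nor was that of smad3 (0.013). Not called were foxa (from 4.24 ± 1.5 to 7.14 ± 0.972 CPM) and mespaa (from 0.572 ± 0.335 to 2.14 ± 0.703 CPM).

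The dorsal organizer is the signaling center that sets the dorsal side. Of its 29 listed genes 20 were tested, and 19 of these rose (95%), 11 from the floor, and 1 fell (5%). Their median was 7.41, and over all genes tested 32.3% rose and 29.5% fell. The filter passed 14 of the 20 through the 6 hpf libraries alone, which fixed that they were higher there. The forkhead gene foxd3 had no counts at 1 hpf and 59.1, 74.5 and 75.9 CPM at 6 hpf, at least 285-fold higher. The Bmp family gene admp (ENSDARG00000025372), at least 307-fold higher, had 79.4, 72.6 and 73.7 CPM at 6 hpf, and fgf3 (at least 196-fold) had 49.8, 51 and 43.3 CPM. The homeobox gene sebox was at least 721-fold higher, with 198, 205 and 127 CPM. The member that fell, otx1 (ENSDARG00000094992), a head homeobox gene, had 199, 218 and 188 CPM at 1 hpf and 35, 31.1 and 25 CPM at 6 hpf (log2 fold change -2.74, SE 0.13, adjusted p = 2.06e-05).

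Bmp signals pattern the ventral side, where the repressors Vox, Vent and Ved hold back organizer genes. In that list 28 of 34 rose (82.4%), 8 from the floor, 1 fell (2.94%) and 5 were not called (median 6.06). The shares over all genes tested were 32.3% up and 29.5% down. The filter passed 16 of the 34 through the 6 hpf libraries alone, which fixed that they were higher there. The values of vox (ENSDARG00000099761) were 0, 0 and 0.409 CPM at 1 hpf and 530.4, 546 and 353 CPM at 6 hpf (log2 fold change 11.83, SE 0.53, adjusted p = 1.74e-05), those of ved 0.132, 0.0678 and 0.327 CPM at 1 hpf and 300.2, 308 and 331 CPM at 6 hpf (log2 fold change 10.77, SE 0.25, adjusted p = 3.82e-06), and those of vent 0, 0 and 0.164 CPM at 1 hpf and 169, 178 and 135 CPM at 6 hpf, at least 655-fold higher. Both vox and vent were lowest in replicate 3 at 6 hpf, and ved was highest there. The homeobox gene eve1 had no counts at 1 hpf and 116, 136 and 155 CPM at 6 hpf, at least 552-fold higher. The Bmp receptor gene bmpr1ba fell from 93.9 ± 8.75 to 13.5 ± 6.54 CPM, whereas another receptor gene, bmpr1a (ENSDARG00000105045), was not called (from 75.8 ± 7.38 to 84.2 ± 11.7 CPM). The inhibitor of DNA binding id2 (ENSDARG00000055283) was not called (from 87.1 ± 10.5 to 55.4 ± 14.4 CPM), but was down without replicate 3 (-0.91, adjusted p = 0.00079).

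For Wnt, Fgf and feedback genes, 28 of 34 rose (82.4%), 8 from the floor, and etv5a alone fell (2.94%), with a median of 4.28. The shares over all genes tested were 32.3% up and 29.5% down. The filter passed 12 of the 34 through the 6 hpf libraries alone, which fixed that they were higher there. The Fgf receptor gene fgfr4 (ENSDARG00000069105) had 0, 0 and 0.572 CPM at 1 hpf and 719.6, 788 and 838 CPM at 6 hpf (log2 fold change 12.09, SE 0.51, adjusted p = 1.52e-05). The feedback phosphatase gene dusp6 and the ligand gene fgf17 had no counts at 1 hpf, and at 6 hpf dusp6 had 67.9, 76.1 and 82 CPM (at least 307-fold) and fgf17 69.3, 54.2 and 46.4 CPM (at least 231-fold). The Wnt receptor gene fzd8 (ENSDARG00000045444) was likewise without counts at 1 hpf and had 143, 148 and 149 CPM at 6 hpf. Among members with maternal mRNA, the Ets factor gene etv5a fell from 84.3 ± 6.45 to 26.9 ± 2.04 CPM, while axin2 (from 126 ± 52.3 to 186 ± 6.22 CPM) and lef1 (from 71.3 ± 3.19 to 90.6 ± 16 CPM), both of the Wnt pathway, were not called.

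Notch, Delta and Hes-related genes, which act in boundary and neural decisions, rose in 16 of 19 cases (84.2%, beside 32.3% of all genes tested). In this list 1 gene fell (5.26%, beside 29.5%), and the median was 4.76. The filter passed 6 of the 19 through the 6 hpf libraries alone, which fixed that they were higher there. The receptor gene notch3 (ENSDARG00000052139) had 0.33, 0 and 0.164 CPM at 1 hpf and 207, 272 and 441 CPM at 6 hpf (log2 fold change 10.69, SE 0.41, adjusted p = 1.06e-05), and the ligand gene dlc 0.132, 0.136 and 0.164 CPM at 1 hpf and 41.1, 54.2 and 37.8 CPM at 6 hpf, at least 181-fold higher. The repressor genes her5 (from 0.282 ± 0.0436 to 42.6 ± 25.6 CPM) and hes6 (ENSDARG00000019335, from 1.08 ± 0.397 to 154 ± 45.1 CPM) rose as well. Values of her5 at 6 hpf spread from 14.8 in replicate 3 to 65.1 CPM in replicate 1. The ligand gene jag2b fell from 44.8 ± 10.03 to 13.8 ± 7.38 CPM, and notch2 (from 62.3 ± 20.5 to 64.7 ± 6.87 CPM) and notch1 (ENSDARG00000052094, from 0.844 ± 0.456 to 2.36 ± 2 CPM) were not called.

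Of 38 listed neural genes 24 were tested, and 19 of these rose (79.2%), 6 from the floor, and 3 fell (12.5%), with a median of 6.79. The shares over all genes tested were 32.3% up and 29.5% down. The filter passed 13 of the 24 through the 6 hpf libraries alone, which fixed that they were higher there. Through the 1 hpf libraries alone 1 passed, and it fell. Besides sox19a, the SoxB1 gene sox2 (ENSDARG00000070913) had 0.198, 0.0678 and 0.0818 CPM at 1 hpf and 93.5, 149 and 199 CPM at 6 hpf, at least 600.5-fold higher. The zinc finger gene zic2 (ENSDARG00000037178) had 0.264, 0 and 0 CPM at 1 hpf and 62.7, 74.3 and 58.3 CPM at 6 hpf (log2 fold change 9.27, SE 0.50, adjusted p = 3.18e-05), and six7, a homeobox gene, 7.34, 9.12 and 10.2 CPM at 6 hpf, at least 36.2-fold higher. The 3 that fell were otx1, neurog1 and zic5 (from 11.8 ± 1.33 to 6.12 ± 1.39 CPM), all with maternal mRNA at 1 hpf. The fall of zic5 was not called without replicate 1 or 2 (adjusted p = 0.045 and 0.068). Not called were zic1 (from 2.34 ± 0.672 to 2.88 ± 0.729 CPM) and meis3 (from 1.33 ± 0.223 to 2 ± 0.831 CPM).

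The enveloping layer is the first epithelium of the embryo. In its list 32 of 39 tested genes rose (82.1%, beside 32.3% of all genes tested), 7 from the floor. A fall was called for 2.56%, beside 29.5%, and the median was 7.49. The filter passed 16 of the 39 through the 6 hpf libraries alone, which fixed that they were higher there. Through the 1 hpf libraries alone 1 passed, and it fell. Keratins and proteins of cell junctions led. The keratin gene krt18a.1 (ENSDARG00000018404) had 0, 0 and 0.409 CPM at 1 hpf and 618, 604 and 657 CPM at 6 hpf (log2 fold change 12.22, SE 0.46, adjusted p = 1.06e-05) and evpla (ENSDARG00000019808), which encodes an envoplakin of the cornified envelope, 0.0661, 0 and 0.654 CPM at 1 hpf and 1179, 1044 and 957 CPM at 6 hpf (log2 fold change 12.19, SE 0.51, adjusted p = 1.42e-05). The keratin gene krt92 had 0.0661, 0 and 0.164 CPM at 1 hpf and 487, 516 and 534 CPM at 6 hpf. In these genes the 6 hpf libraries agreed closely, with replicate 3 no lower than the rest except for evpla. The junction genes epcam (from 263 ± 57.5 to 231 ± 25.5 CPM) and cldn7b (from 54.5 ± 2.02 to 89.8 ± 25.8 CPM), with maternal mRNA, were not called, and cldn7b was called up without replicate 3 (0.96, adjusted p = 1.3e-05). The Polycomb gene cbx7 alone fell, from 1.06, 1.36 and 1.31 CPM to the floor (at least 2.4-fold), and it was not called without replicate 1 or 2 (adjusted p = 0.012 and 0.034). Keratins and claudins have close paralogs, so their counts may miss shared reads.

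The yolk syncytial layer feeds the embryo from the yolk, and 18 of 20 tested genes of its list rose, 8 from the floor (median 8.11). In shares, 90% rose, beside 32.3% of all genes tested, and 5% fell, beside 29.5%. Of the 20, 15 passed the filter through the 6 hpf libraries alone, and 12 of the 32 listed genes were not tested. The lipid transfer gene mttp (ENSDARG00000008637), needed to load lipoproteins, had 0.132, 0.0678 and 0.654 CPM at 1 hpf and 1365, 1403 and 1232 CPM at 6 hpf (log2 fold change 12.25, SE 0.39, adjusted p = 6.94e-06). The sulfate transporter gene slc13a4 had 0.0661, 0 and 0.0818 CPM at 1 hpf and 306, 283 and 290.1 CPM at 6 hpf, at least 1195-fold higher. The homeobox gene mxtx1 had 282, 231 and 190 CPM at 6 hpf (at least 954-fold) and the nuclear receptor gene hnf4a, without counts at 1 hpf, 98.1, 104 and 84.9 CPM (at least 390.4-fold). A lipoprotein gene went the other way: apob (ENSDARG00000042780) had 12.3, 14.4 and 11.6 CPM at 1 hpf and 0.534, 0.537 and 1.55 CPM at 6 hpf (log2 fold change -3.93, SE 0.41, adjusted p = 0.000305).

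Genes of adhesion, matrix and cell migration rose in 31 of 40 cases, 7 from the floor (median 4.66), at the stage when gastrulation movements begin. In shares, 77.5% rose, beside 32.3% of all genes tested, and 2.5% fell, beside 29.5%. The filter passed 12 of the 40 through the 6 hpf libraries alone, which fixed that they were higher there. The hyaluronan synthase gene has2 had 0, 0 and 0.164 CPM at 1 hpf and 388, 348 and 279 CPM at 6 hpf. The apelin receptor genes, which guide mesendoderm cells, rose in parallel: aplnrb (ENSDARG00000036670) had 0, 0 and 0.0818 CPM at 1 hpf and 118, 156 and 202 CPM at 6 hpf, at least 648-fold higher, and aplnra 0, 0 and 0.327 CPM at 1 hpf and 188, 193 and 178 CPM at 6 hpf (log2 fold change 10.76, SE 0.49, adjusted p = 1.83e-05). The cadherin gene cdh6 rose from 0.189 ± 0.073 to 270.4 ± 32.6 CPM. The plexin gene plxna1 (ENSDARG00000105452) fell from 113 ± 8.37 to 41.6 ± 11.4 CPM, and its copy ENSDARG00000114823 was not called (from 142 ± 24.6 to 105 ± 19 CPM). The fibronectin gene fn1 (ENSDARG00000019815) was not called (from 58.9 ± 21.8 to 53.5 ± 14.8 CPM) but was down without replicate 3 (-0.63, adjusted p = 0.0016).

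Genes of somatic mesoderm and muscle were mostly untested, since 9 of 22 passed the filter. Of the 9, 6 rose (66.7%, beside 32.3% of all genes tested) and 3 were not called. The filter passed 5 of the 9 through the 6 hpf libraries alone, which fixed that they were higher there. The T-box gene tbx16l was at least 131-fold higher, aldh1a2, which makes retinoic acid, at least 101-fold, and cdx4 had 0.529, 0.678 and 0.491 CPM at 1 hpf and 52, 64 and 131 CPM at 6 hpf (log2 fold change 7.04, SE 0.30, adjusted p = 1.58e-05). For msgn1, of presomitic mesoderm, the values were 0.396, 0.678 and 0.164 CPM at 1 hpf and 26, 40.8 and 84.9 CPM at 6 hpf (log2 fold change 6.71, SE 0.46, adjusted p = 6.8e-05). These 4 genes were highest in replicate 3 at 6 hpf. The genes pax3 (ENSDARG00000010192, from 3.11 ± 0.365 to 1.09 ± 0.567 CPM) and actc1b (from 1.63 ± 1.12 to 2.35 ± 1.44 CPM) were not called.

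Of 27 genes of the p53 pathway and apoptosis, 11 rose (40.7%), 7 fell (25.9%) and 9 were not called (median -0.01), beside 32.3% and 29.5% of all genes tested. Of the 27, 3 passed the filter through the 6 hpf libraries alone and rose, and 1 passed through the 1 hpf libraries alone and fell. The filter fixed the direction of these genes. Without replicate 2, 3 of the 27 fell, where 19.5% of all genes fell. The sestrin gene sesn3 (ENSDARG00000015822) had 1.06, 0.949 and 4.41 CPM at 1 hpf and 899, 1021 and 1251 CPM at 6 hpf (log2 fold change 9.11, SE 0.39, adjusted p = 1.63e-05), and isg15, a ubiquitin-like modifier, rose from no counts to 49.9, 70.05 and 80.4 CPM. The cell cycle inhibitor gene cdkn1a, a p53 target, rose from 0.674 ± 0.124 to 20.3 ± 9.27 CPM and gadd45a (ENSDARG00000043581) from 0.315 ± 0.107 to 11.2 ± 3.37 CPM. The p53 inhibitor gene mdm4 had 174, 173 and 148 CPM at 1 hpf and 33, 32.7 and 40.6 CPM at 6 hpf (log2 fold change -2.22, SE 0.15, adjusted p = 6.45e-05), and the apoptosis regulators bcl2a (from 13.3 ± 1.57 to 4.16 ± 1.39 CPM) and baxb (from 22.1 ± 3.26 to 8.47 ± 1.1 CPM) fell too. The test did not call apaf1 (from 85.6 ± 4.3 to 61.6 ± 9.4 CPM) or bcl2l1 (from 65.3 ± 9.48 to 56.8 ± 7.61 CPM), but apaf1 was down without replicate 3 (-0.32, adjusted p = 0.0095), and with libraries scaled by totals alone both were called down (-1.03 and -0.75).

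Genes of protein synthesis rose from a maternal level. In translation elongation and initiation 27 of 41 rose (65.9%), 5 fell (12.2%) and 9 were not called (median 1.00). The shares over all genes tested were 32.3% up and 29.5% down. The elongation factor gene eef1a1l1 (ENSDARG00000020850) had 714, 713 and 948 CPM at 1 hpf and 10150.5, 11062 and 10730.5 CPM at 6 hpf (log2 fold change 3.76, SE 0.11, adjusted p = 5.76e-06). Elongation factor genes eef2a.1 (from 3.85 ± 1.57 to 37.5 ± 4.44 CPM) and eef2a.2 (from 3.5 ± 0.91 to 14.4 ± 1.13 CPM) and the helicase gene eif4a2 (from 19.4 ± 6.72 to 94.8 ± 1.53 CPM) rose as well. The 5 that fell included pabpc1l, given above, eif2s1 (ENSDARG00000052178, from 68 ± 24.8 to 23.5 ± 6.13 CPM), eif1axa (from 86.4 ± 2.57 to 50.3 ± 7.55 CPM) and eif6 (from 109.7 ± 6.63 to 70.2 ± 4.38 CPM). The last 2 were not called without replicate 2 (adjusted p = 0.02 and 0.035), nor was eif6 without replicate 1 (0.012), while eef1g (from 372 ± 118 to 348 ± 20.02 CPM) and eif1axb (from 119 ± 7.38 to 118 ± 1.78 CPM) were not called in the full comparison.

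Of 37 genes of the nucleolus and ribosome biogenesis, all tested, 28 rose (75.7%), 3 fell (8.11%) and 6 were not called (median 1.12). The shares over all genes tested were 32.3% up and 29.5% down. The Myc family, which drives ribosome production in other vertebrates, changed members: mych (ENSDARG00000077473) had 35.4, 27.5 and 23.9 CPM at 1 hpf and 1321, 1398 and 1047 CPM at 6 hpf (log2 fold change 5.45, SE 0.13, adjusted p = 3.82e-06) and mycn 1.52, 1.49 and 0.736 CPM at 1 hpf and 119, 116 and 92 CPM at 6 hpf (log2 fold change 6.44, SE 0.20, adjusted p = 6.4e-06). Both genes that carry the symbol myc fell, ENSDARG00000007241 from 66.7 ± 16.5 to 6.89 ± 1.55 CPM and ENSDARG00000045695 from 5.99 ± 1.34 to 0.765 ± 0.147 CPM. The filter passed ENSDARG00000045695 through the 1 hpf libraries alone, which fixed that it was higher there. The nucleolar GTPase gene gnl3 rose from 20.8 ± 4.64 to 247 ± 14.3 CPM, and the rRNA methyltransferase gene nop2 from 25.5 ± 13.2 to 216 ± 32.3 CPM. The largest subunit of RNA polymerase I, polr1a, fell from 290 ± 6.78 to 154 ± 22.8 CPM, and wdr43 (from 355 ± 9.79 to 409.8 ± 41.3 CPM) and utp15 (from 127 ± 12.2 to 156 ± 3.06 CPM) were not called, though both were called up without replicate 3 (0.31 and 0.37, adjusted p = 0.00097 and 0.0023).

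The RNA polymerase II machinery rose in 19 of 38 cases (50%, beside 32.3% of all genes tested) and fell in 4 (10.5%, beside 29.5%), with a median of 0.45. With libraries scaled by totals alone 12 rose and 14 fell, where 23.7% of all genes rose and 44.4% fell. The counts of this list thus depend on the scaling, as do those of all genes. Without replicate 2, 12 rose and 2 fell, where 24.4% of all genes rose and 19.5% fell. The largest subunit gene polr2a (ENSDARG00000099966) had 137, 159 and 182 CPM at 1 hpf and 497, 504 and 735 CPM at 6 hpf (log2 fold change 1.84, SE 0.10, adjusted p = 3.36e-05), polr2b rose from 105 ± 8.52 to 388 ± 46.1 CPM, and the small subunit genes polr2h (from 15.2 ± 7.27 to 88.6 ± 4.34 CPM) and polr2k (from 4.6 ± 1.87 to 22.4 ± 3.19 CPM) rose too. Beside tbpl2 and tbp, falls were those of gtf2h1, of the helicase factor TFIIH (from 67.1 ± 3.87 to 22.3 ± 0.748 CPM), and tbpl1 (from 53.1 ± 5.07 to 35.5 ± 2.18 CPM). The fall of tbpl1 was not called without replicate 1 or 2 (adjusted p = 0.041 and 0.071). Genes gtf2a1 (from 463 ± 73.5 to 343 ± 44 CPM) and med14 (from 172 ± 9.09 to 173 ± 34.2 CPM) were not called.

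In glycolysis and the pentose phosphate pathway 12 of 26 fell (46.2%, beside 29.5% of all genes tested). A rise was called for 5 (19.2%, beside 32.3%), and 9 were not called (median -0.65). Of the 5 that rose, 3 passed the filter through the 6 hpf libraries alone, which fixed that they were higher there. The muscle-type phosphofructokinase gene pfkm (ENSDARG00000014179) had 44.8, 41.8 and 29.5 CPM at 1 hpf and 5.07, 2.95 and 1.55 CPM at 6 hpf (log2 fold change -3.63, SE 0.25, adjusted p = 6.72e-05), hk2 fell from 69.2 ± 3.64 to 9.99 ± 4.45 CPM, gpi (ENSDARG00000012987) from 165 ± 27.4 to 34 ± 9.7 CPM and aldoc (ENSDARG00000019702) from 45 ± 11.5 to 9.84 ± 2.35 CPM. Among members that rose, hk1 (at least 52.5-fold higher) and pklr (at least 17.2-fold) rose from the floor. The lactate dehydrogenase gene ldhbb rose from 0.345 ± 0.19 to 2.19 ± 0.285 CPM, a rise not called without replicate 1 or 2 (adjusted p = 0.015 and 0.016) or under scaling by library totals alone (0.011). Genes pfkl (ENSDARG00000099755, from 61.7 ± 5.69 to 71.8 ± 11.5 CPM) and tpi1 (ENSDARG00000040988, from 58.7 ± 6.23 to 70.02 ± 5.1 CPM) were not called.

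In sterol and lipid synthesis 12 of 22 fell (54.5%, beside 29.5% of all genes tested) and 4 rose (18.2%, beside 32.3%), with a median of -0.75. The sterol dehydrogenase gene nsdhl (ENSDARG00000099315) had 99.4, 99.4 and 95.2 CPM at 1 hpf and 13.1, 10.5 and 8.8 CPM at 6 hpf (log2 fold change -3.19, SE 0.16, adjusted p = 2.46e-05), and the mevalonate pathway genes mvk (from 29.8 ± 2.88 to 4.53 ± 0.126 CPM) and mvd (from 34.7 ± 4.33 to 6.48 ± 2.78 CPM) and the receptor gene ldlra (from 6.8 ± 4.77 to 0.784 ± 0.428 CPM) fell. Without replicate 2, 6 of the 22 fell and 2 rose, where 19.5% of all genes fell and 24.4% rose. In that setting ldlra was not called (adjusted p = 0.011). Rises were seen for sqle (ENSDARG00000079946), an enzyme of cholesterol synthesis (from 2.96 ± 1.7 to 21 ± 9.52 CPM), idi1 (from 79.1 ± 14.7 to 341 ± 13.5 CPM), srebf2 (from 50.9 ± 6 to 85.2 ± 15.6 CPM) and fasn (from 172 ± 9.87 to 254 ± 3.24 CPM), the last 2 not called without replicate 2 (adjusted p = 0.023 and 0.035) or under scaling by library totals alone (0.21 and 0.89). The gene fdps (from 120.3 ± 9.93 to 104 ± 8.15 CPM) was not called.

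Nuclear genes of oxidative phosphorylation fell in 11 of 29 cases (37.9%, beside 29.5% of all genes tested). They rose in 3 (10.3%, beside 32.3%), with 15 not called (median -0.39). Without replicate 2 the counts were 5 and 1, where 19.5% of all genes fell. With scaling by library totals alone they were 18 and 1, where 44.4% of all genes fell. Subunits of the ATP synthase led the falls, with atp5po (ENSDARG00000001788) at 102, 105 and 116 CPM at 1 hpf and 33.1, 33.8 and 27.4 CPM at 6 hpf (log2 fold change -1.77, SE 0.15, adjusted p = 0.000122), atp5pb (from 113 ± 11.3 to 36.8 ± 1.91 CPM) and atp5f1d (from 41.4 ± 2.66 to 14.3 ± 1.56 CPM), and sdhc, of complex II, fell from 22 ± 2.05 to 8.08 ± 1.33 CPM. The complex IV gene cox7c rose from 21.2 ± 9.47 to 82.8 ± 1.51 CPM, ndufa4 from 59.5 ± 1.92 to 102 ± 3.68 CPM and cyc1, of complex III, from 128 ± 11.2 to 176 ± 6.05 CPM. The rises of ndufa4 and cyc1 were not called without replicate 1 (adjusted p = 0.0103 and 0.041), without replicate 2 (0.018 and 0.12) or with libraries scaled by totals alone (0.094 and 0.43), where cyc1 changed by -0.09. Neither cycsb (from 169.6 ± 15.1 to 201 ± 7.9 CPM) nor uqcrc2 (from 142 ± 8.18 to 112 ± 9.89 CPM) was called. All 13 mitochondrially encoded mRNAs are listed at 0 counts in all 6 libraries, so these libraries carry no measure of them.

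The 10 genes with the highest CPM among those with a change under 0.5 in size were ccnb1, tpx2 and nanog, given above, and the mitotic motor gene kif11 (from 846 ± 12.9 to 664 ± 99.3 CPM), the topoisomerase gene top2a (from 948 ± 133 to 761 ± 23.6 CPM), anln, of the contractile ring (from 756 ± 9.92 to 779 ± 50.9 CPM), and tubb4b, a tubulin (from 898 ± 261 to 691 ± 23 CPM). The other 3 were ctss2.1, a cathepsin (from 1088 ± 128 to 797 ± 99.2 CPM), znf1035 (from 841 ± 46.6 to 965 ± 9.49 CPM) and mkrn4 (from 934 ± 134 to 698 ± 174 CPM). None was called. Without replicate 3, 4 of these 7 were called, with small changes: ctss2.1 (-0.25), znf1035 (0.21), top2a (-0.19) and kif11 (-0.24). With libraries scaled by totals alone all 7 were called down, by -0.35 for znf1035 and by -0.51 (anln) to -0.998 (ctss2.1) for the rest, so their size of change depends on the scaling.

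Markers of other cells and later tissues were largely at or near 0. Of 15 genes of ovarian follicle and gonad soma, 4 were tested, and the aromatase gene cyp19a1 and the receptor gene fshr were at or under 1 count in each library. The summed level of that list was 469 to 475 CPM at 1 hpf and 245 to 333 at 6 hpf, almost all of it from the steroid synthesis genes cyp11a1 (ENSDARG00000002347, from 325 ± 11.5 to 161 ± 50.4 CPM), cyp17a1 (from 130.3 ± 16.4 to 36.4 ± 19.2 CPM) and hsd3b2, which rose from 14.5 ± 7.13 to 104 ± 18.1 CPM. Whether follicle cells add to the 1 hpf values was not tested. Of 6 blood genes only lcp1 was tested. The summed level of that list rose from 0.475 to 0.654 CPM to 306 to 410 CPM, nearly all lcp1, whereas the globin genes hbae1.1 and hbae3 were at 0.863 CPM or less. Of 9 nervous system genes, elavl3 alone was tested and rose from the floor to 4.14, 3.62 and 6.04 CPM. In the muscle and heart list (9 genes, 2 tested) and the liver, pancreas and gut list (6 genes, 1 tested) no gene was called.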

How the data were processed

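The authors removed ribosomal RNA, made stranded single-end libraries, mapped reads to GRCz11 with STAR 2.7.8a, kept those with 1 placement and used featureCounts to count them by Ensembl gene, per the study's methods and the submitters' processing notes. The annotation release and the strand setting are not given in the sources used here. Without a known strand setting, overlapping and antisense genes are uncertain. The deposited values are raw counts per gene, 1 table per library.

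Counts were fitted with edgeR 4.0.16 in R 4.3.3 (TMM scaling, quasi-likelihood F test, robust option, stage with the replicate number as a block, 2 residual degrees of freedom), 2-sided, with Benjamini-Hochberg adjustment over the 15036 genes. SEs are approximate: the size of the log2 fold change was divided by the root of F. The procedure was also run on simulated counts in which only a small part of the genes changed and replicates had no effect. In the data 9290 genes were called, so that run cannot test the scaling used here. The stages were paired by replicate number, and the sources used here do not say what the number stands for. Deviations from the stage means correlated across genes at 0.180 to 0.209 for the 3 same-numbered pairs and at -0.166 to 0.0535 for the 6 others. Deviations within a stage sum to 0, so these correlations are tied to each other and are no proof of pairing.

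Gene lists, pairs and named genes were chosen with earlier results of these data known. Named genes are, per list, up to 4 up and 4 down with the largest change and no overlap and up to 2 not called with the highest CPM, all paired genes, the marker genes, and 10 each of the highest genes switched on from the floor, cleared to it, fallen by over 3 (log2) or changed by under 0.5. A few genes that this rule takes are not reported here. A symbol table named 23608 of the 25432 genes. It drops the last letter of some zebrafish duplicates, so 161 of 814 listed names were matched to the symbol without it, and identifiers are given where a symbol is shared.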

Additional observations from a re-analysis of the deposited data

How the results depend on the processing

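Depth and scaling set the limits. The 6 hpf libraries were shallower, so genes near 0.518 CPM at that stage are imprecise, and with 3 libraries per stage small changes turn on the replicate used. The counts of genes up and down were 5243 and 4147 with RLE scaling, 4982 and 4460 with upper-quartile scaling, 5356 and 4210 with DESeq2, 5094 and 4958 with no filter, 3998 and 4021 with a filter at 5 CPM, 5783 and 5366 with all 12 libraries and no block, and 5698 and 5610 at an adjusted p below 0.05. The count down moved to 6677 with libraries scaled by totals alone. The test against a 2-fold change gave 3067 up and 2298 down. Leaving out 1 replicate number gave 3670 to 5419 up and 2937 to 5129 down, the lowest without replicate 2 (2937 down) and the highest without replicate 3. These fits hold fewer libraries and fewer residual degrees of freedom than the full fit. A gene not called in them need not have a smaller change. 

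Without the replicate block 4943 genes rose and 4523 fell, of which 4728 and 4238 were called with it. Leaving out 1 library, also without the block, gave 4328 to 4844 up and 3678 to 4415 down. The block changed the call of 3 named genes, ddx4, h1m and ccna1. Directions reversed with libraries scaled by totals alone for ddx4 (-0.11), ago2 (-0.46), cyc1 (-0.088), znf1035 (-0.35) and anln (-0.51), and without replicate 3 for ccnb1 (ENSDARG00000051923), at -0.23 to 0.32 when 1 replicate number was left out. The cause of these shifts was not tested. Of the named genes called in the full comparison, none but ddx4 and cyc1 changed direction under these alternatives.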

Other observations

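The gene tgfbr2l, which rose from no counts to 2320, 1968 and 2323 counts in the wild-type libraries at 6 hpf, had 3, 2 and 8 counts in the znf598 knockout libraries of that stage (chosen after its values were seen). The other 9 genes named as switched on from the floor were in the range of 137 to 620.5 CPM, by library totals, in the knockout libraries.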
